A study of Mus musculus with 18 samples.

Results

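The genes described here are 10 zinc-dependent histone deacetylases of the mouse. They were chosen by name and not by a cut on their values, but with earlier results of these data known. Hdac1, Hdac2, Hdac3 and Hdac8 are of class I, and Hdac4, Hdac5 and Hdac7 of class IIa. Hdac6 and Hdac10 are of class IIb, and Hdac11 is the only gene of class IV. All 10 of 10 were present among the 13104 genes counted in embryonic stem cells (ESCs) and among the 13717 genes counted in epiblast-like cells (EpiLCs). Hdac9, the remaining class IIa gene, was not analysed here. The study asked how Δ9-tetrahydrocannabinol (Δ9-THC), the main psychoactive compound of cannabis, acts on cells that model the early embryo. The ESCs were BVSC cells, mouse ESCs with the fluorescent reporters Blimp1::mVenus and Stella::ECFP for germline genes, grown in 2i medium with leukemia inhibitory factor. The EpiLCs were derived from them in medium with activin A, basic fibroblast growth factor and knockout serum replacement. The BVSC cells come as a female and a male clone, and the study describes its work on ESC proliferation as done in the female cells with a repeat in the male ones. Which of them gave the RNA libraries is not stated separately in the sources used here. Each cell type received either 100 nM Δ9-THC or the vehicle, ethanol in the same medium. In both arms the EpiLCs came from ESCs of the same arm, so that exposed EpiLCs had been under Δ9-THC since the ESC stage.

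Poly(A) RNA was sequenced from 12 libraries, 3 biological replicates of vehicle ESCs, exposed ESCs, vehicle EpiLCs and exposed EpiLCs. The total count per library ranged from 23427551 to 32096698. Levels are in CPM, a read count scaled to the library total after TMM normalization within each cell type, with the SD over 3 replicates. These SDs describe counts that the authors had already adjusted for batch effects, so they do not give the spread of the cultures themselves. Exposures were compared within each cell type by edgeR's quasi-likelihood test over all genes, and a gene was called at a Benjamini-Hochberg adjusted p of at most 0.05.

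The libraries carried the markers of their labels. Naive pluripotency markers summed to 4643, 5000 and 4788 CPM over 10 genes in the 3 vehicle ESC libraries, and to 360, 354 and 391 CPM in vehicle EpiLCs. The formative and primed epiblast markers went the other way, from 167, 172 and 181 CPM in vehicle ESCs to 2004, 2135 and 1793 CPM in vehicle EpiLCs, with Dnmt3b the most abundant. Of 6 primitive endoderm markers, only Gata4 was counted in ESCs, at 2.94 CPM with the vehicle, and the 2 counted in EpiLCs summed to 7.81 CPM. Of 6 fibroblast markers, 2 were counted in ESCs and summed to 6.22 CPM with the vehicle. The 4 counted in EpiLCs summed to 17.0 CPM with the vehicle, mainly Thy1. Of 6 trophoblast markers 3 were counted in ESCs, at a sum of 144 CPM with the vehicle that was mostly Tfap2c, a gene of the germline and naive cells too, and 31.5 CPM in EpiLCs. The 3 counted mesoderm and primitive streak markers summed to 17.2 CPM in vehicle ESCs and 7.02 CPM in vehicle EpiLCs, with Eomes the most abundant. Of 5 neural ectoderm markers, 2 were counted in ESCs and summed to 44.6 CPM with the vehicle. The 3 counted in EpiLCs summed to 84.4 CPM with the vehicle, mainly Nes at 68.6 CPM. Exposure left the naive and the epiblast sums overlapping between the groups of each cell type.

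Histone deacetylases remove acetyl groups from lysines of histones and other proteins, and their zinc-dependent members fall into classes by sequence. Class I enzymes are nuclear: HDAC1 and HDAC2 are the catalytic subunits of the Sin3, NuRD, CoREST and MiDAC corepressor complexes, HDAC3 works in a corepressor complex of its own, and HDAC8 deacetylates cohesin. Class IIa proteins have little deacetylase activity of their own, bind MEF2 transcription factors and shuttle out of the nucleus with 14-3-3 proteins once kinases phosphorylate them. HDAC6 of class IIb is cytoplasmic and acts on tubulin, HDAC10 is a polyamine deacetylase, and HDAC11 of class IV removes long fatty acyl groups.

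In vehicle ESCs, the class I genes Hdac1 and Hdac2 led the family. Divided by exonic length, Hdac1 stood at 108 ± 4.48 CPM per kb (SD, n = 3) and Hdac2 at 54.5 ± 1.38. Hdac6, the tubulin deacetylase, followed at 23.4 ± 0.294 CPM per kb and Hdac3 at 21.8 ± 0.586. These 4 genes stood far above the other members, and no library of one overlapped those of the next in the order. Hdac5 was the class IIa gene with the highest level per kb, at 3.95 ± 0.0418 CPM per kb. Before division by length, Hdac4 was higher, at 41.0 ± 1.72 CPM against 34.7 ± 0.367 for Hdac5. The exonic length takes in the exons of all annotated transcripts, so the order per kb depends on the annotation. Hdac4 at 2.59 ± 0.109 and Hdac8 at 2.36 ± 0.210 CPM per kb overlapped and cannot be ordered beyond their spread. The lowest levels were those of Hdac7 at 1.97 ± 0.0250, Hdac10 at 1.34 ± 0.0558 and Hdac11 at 0.891 ± 0.0846 CPM per kb, with no overlap between neighbours.

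The order in vehicle EpiLCs was much the same at its top. Hdac1 had 78.4 ± 4.99 CPM per kb, Hdac2 48.5 ± 1.20, Hdac3 21.05 ± 1.06 and Hdac6 19.1 ± 0.439, so that Hdac3 stood above Hdac6 here. Hdac5 followed at 4.29 ± 0.307 CPM per kb, then Hdac8 at 2.79 ± 0.0734 and Hdac4 at 2.08 ± 0.154. Hdac10 at 1.40 ± 0.132 and Hdac11 at 1.06 ± 0.209 CPM per kb came next. Hdac7 was last at 0.487 ± 0.0906 CPM per kb. No neighbours overlapped in this order.

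Hdac7 was the member whose level differed most between the cell types. On a scale set over all 12 libraries, it stood at 13.4 ± 0.181 CPM (SD, n = 3) in vehicle ESCs and at 3.30 ± 0.601 CPM in vehicle EpiLCs, a 4.05-fold higher level in ESCs. It was the only 1 of 10 members with a difference of more than 2-fold, a size that 21.7% of the 12410 genes in both tables reached. Hdac1 had 374 ± 14.9 CPM in ESCs and 271 ± 17.8 in EpiLCs, a log2 ratio of -0.47 (EpiLCs over ESCs). The log2 ratios were -0.32 for Hdac4, -0.29 for Hdac6 and -0.17 for Hdac2, each with its vehicle EpiLC libraries below all vehicle ESC libraries. Hdac8 and Hdac5 were higher in every EpiLC library, by log2 ratios of 0.24 and 0.12. Hdac3, Hdac10 and Hdac11 overlapped between the cell types. The tables of the cell types were adjusted separately by the authors, so these are descriptions with no test. In bulk libraries, fewer cells that express a gene and less RNA per cell cannot be told apart.

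**Figure D1:**
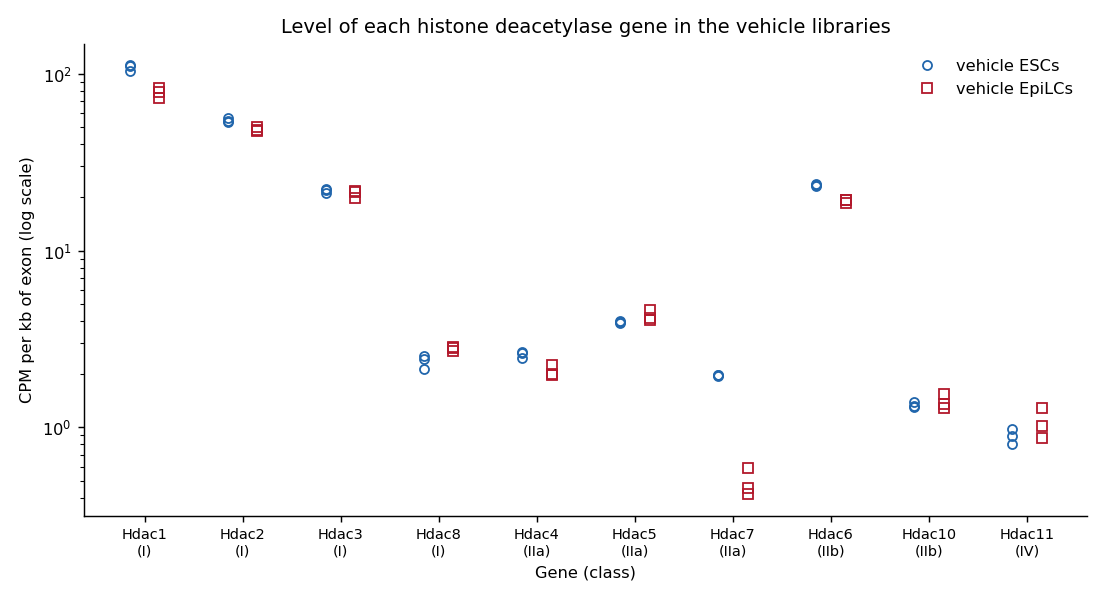
Level of each of the 10 genes in CPM per kb of exonic length (log axis), by class, in the 3 vehicle libraries of ESCs (circles) and of EpiLCs (squares). Hdac1, Hdac2, Hdac3 and Hdac6 lie well above the others in both cell types, and Hdac7 lies at 1.97 CPM per kb in ESCs and 0.487 in EpiLCs.

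By class, the summed CPM per kb of the family was mostly class I. Class I made up 84.6 ± 0.491% (SD, n = 3) of the sum in vehicle ESCs and 84.1 ± 0.765% in vehicle EpiLCs. Class IIb, nearly all of it Hdac6, held 11.2 ± 0.357% in vehicle ESCs and 11.4 ± 0.459% in vehicle EpiLCs. Class IIa held 3.85 ± 0.146% and 3.83 ± 0.392%. As a share of counts not divided by length, class IIa held 9.37% in vehicle ESCs and 9.473% in vehicle EpiLCs. Class IV was the smallest, at 0.402 ± 0.0312% in vehicle ESCs and 0.590 ± 0.113% in vehicle EpiLCs.

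With Δ9-THC, the class shares of ESCs moved a little and those of EpiLCs overlapped. The class IIa share of exposed ESCs was 3.17%, 3.34% and 3.43% in the 3 libraries, against 4.01%, 3.82% and 3.73% with the vehicle. Class IV went from 0.376%, 0.437% and 0.394% with the vehicle to 0.291%, 0.233% and 0.269%. Class IIb went from 11.2 ± 0.357% to 10.5 ± 0.339% (SD, n = 3), with 10.84% in the lowest vehicle library and 10.83% in the highest exposed one. Class I was higher in turn, at 85.9 ± 0.457%, as shares of a fixed sum must. In exposed EpiLCs, class I held 83.7 ± 0.744%, class IIa 4.05 ± 0.395%, class IIb 11.6 ± 0.427% and class IV 0.680 ± 0.116%. No test was run on these shares, and they were not corrected for the trend with GC content described below.

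The question for each member was whether exposure changed its mRNA. In ESCs, 3 of 10 members were called with Δ9-THC, and all 3 were lower: Hdac5 and Hdac7 of class IIa and Hdac11 of class IV. Over all 13104 genes tested, 465 were called lower, or 3.55%, and 441 higher. None of the class I and class IIb genes was called by edgeR. The median log2 fold change of the 10 members was -0.15, against 0.0041 over all genes. In 5 of 10 members, namely Hdac5, Hdac6, Hdac7, Hdac10 and Hdac11, every exposed ESC library lay below every vehicle library, as in 15.9% of all genes. Hdac2 was the 1 member with every exposed library above the vehicle libraries, as in 16.7% of all genes. The calls above treat the libraries as independent, although the adjusted libraries of both arms were not. With the replicate number as a block in the fit, 0 of 10 members were called.

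Hdac5 (ENSMUSG00000008855, chromosome 11 from 102194432 to 102230166) was the class IIa gene with the highest level per kb in these cells. It had 35.0, 34.3 and 34.8 CPM in the vehicle ESC libraries and 27.7, 28.4 and 28.1 CPM in the exposed ones. All exposed libraries thus lay below the vehicle libraries, and the small spread within each group is that of batch-adjusted counts. The log2 fold change was -0.30 (SE 0.032, adjusted p = 0.0265 by edgeR and Benjamini-Hochberg).

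Hdac7 (ENSMUSG00000022475, chromosome 15 from 97792664 to 97844502), another MEF2-binding class IIa gene, had 13.4, 13.1 and 13.4 CPM with the vehicle and 11.02, 11.3 and 11.1 CPM with Δ9-THC. Its groups were again separate, and their small spread is likewise that of batch-adjusted counts. The log2 fold change was -0.26 (SE 0.043, adjusted p = 0.0321 by edgeR and Benjamini-Hochberg). Hdac4 (ENSMUSG00000026313, chromosome 1 from 91928779 to 92195699), the third class IIa gene, had 41.6, 42.4 and 39.1 CPM with the vehicle and 37.1, 36.5 and 39.7 CPM with Δ9-THC. One exposed library lay above the lowest vehicle library, and the log2 fold change of -0.12 did not pass (SE 0.049, adjusted p = 0.164 by edgeR and Benjamini-Hochberg). Hdac4 shares 22.4% of its exonic bases with Gm26720, and the reads were counted without strand, so its values are uncertain.

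Hdac11 (ENSMUSG00000034245, chromosome 6 from 91156665 to 91174692), the fatty acyl hydrolase of class IV, had the largest fold change among the members in ESCs. Its levels were 3.11, 3.76 and 3.43 CPM in the vehicle libraries and 2.51, 1.94 and 2.22 CPM in the exposed ones, from 97 to 103 counts and from 53 to 60 counts per library. All exposed libraries lay below the vehicle group, with a wider spread than for Hdac5 and Hdac7. The log2 fold change was -0.63 (SE 0.13, adjusted p = 0.0420 by edgeR and Benjamini-Hochberg). Hdac11 shares 17.9% of its exonic bases with Gm14573 and Gm44002, so its values are uncertain as well.

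The class IIb genes had negative values in ESCs that did not pass. Hdac6 (ENSMUSG00000031161, chromosome X from 7930120 to 7947889) had 137, 138 and 134 CPM with the vehicle and 126, 125 and 129 CPM with Δ9-THC. Its groups did not overlap, but the log2 fold change of -0.11 missed the threshold (SE 0.026, adjusted p = 0.0550 by edgeR and Benjamini-Hochberg). Hdac10 (ENSMUSG00000062906, chromosome 15 from 89123307 to 89128700), the polyamine deacetylase, had 4.45, 4.38 and 4.73 CPM with the vehicle and 4.06, 4.12 and 3.82 CPM with Δ9-THC. The log2 fold change here was -0.17 (SE 0.073, adjusted p = 0.277 by edgeR and Benjamini-Hochberg). This SE is smaller than the p-value implies, and DESeq2 gave an SE of 0.180.

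Of the class I genes, Hdac1, Hdac2 and Hdac3, which encode catalytic subunits of corepressor complexes, had log2 fold changes near 0. Hdac1 (ENSMUSG00000028800, chromosome 4 from 129516104 to 129542713) had 356, 380 and 385 CPM in vehicle ESCs and 382, 360 and 356 CPM in exposed ESCs, with overlapping groups and a log2 fold change of -0.03 (SE 0.043, adjusted p = 0.691 by edgeR and Benjamini-Hochberg). Hdac2 (ENSMUSG00000019777, chromosome 10 from 36974544 to 37001889) had 240, 241 and 251 CPM with the vehicle and 262, 262 and 252 CPM with Δ9-THC. It was the only member with a positive value, a log2 fold change of 0.08 that did not pass (SE 0.031, adjusted p = 0.130 by edgeR and Benjamini-Hochberg) and that became -0.04 with the GC and length offsets. Hdac3 (ENSMUSG00000024454, chromosome 18 from 37935844 to 37955016) had 85.9, 90.5 and 89.1 CPM against 90.0, 85.5 and 87.4 CPM, with overlapping groups and a log2 fold change of -0.01 (SE 0.034, adjusted p = 0.820 by edgeR and Benjamini-Hochberg). Hdac8 (ENSMUSG00000067567, chromosome X from 102284639 to 102505359) was the low member of the class, at 10.3, 12.3 and 11.7 CPM with the vehicle and 10.98, 9.10 and 9.64 CPM with Δ9-THC. The log2 fold change here was -0.21 (SE 0.097, adjusted p = 0.212 by edgeR and Benjamini-Hochberg).

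The log2 fold changes with Δ9-THC moved with base composition across all genes. In ESCs, of the 2617 genes with the highest GC content, from 55.6% up, 11.9% were called lower and 0.115% higher, and their median log2 value was -0.11. Of the 2617 genes with the lowest GC content, up to 44.6%, 0.115% were called lower and 10.97% higher, and the median was 0.13. In EpiLCs the median was -0.08 over the 2739 genes with the highest and 0.09 over the 2740 genes with the lowest GC content. Hdac5 at 60.0% GC, Hdac7 at 59.7%, Hdac11 at 57.2% and Hdac10 at 56.6% belong to the GC-rich group, and Hdac2 at 42.1% to the GC-poor one. With offsets that take out how each library's counts trend with GC content and length, the log2 fold changes became -0.13 for Hdac5 (SE 0.028), -0.09 for Hdac7 (SE 0.040) and -0.52 for Hdac11 (SE 0.14). Among members that were not called, Hdac6 went to -0.03, Hdac10 to -0.08 and Hdac4 to -0.06, while Hdac8 went to -0.28 and Hdac3 stayed near 0 at -0.03. With these offsets edgeR called 0 of 10 members and 2 of all genes, with 2394 genes at an unadjusted p under 0.05. The Benjamini-Hochberg adjusted p was then 0.116 for Hdac5, 0.439 for Hdac7 and 0.145 for Hdac11.

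The 3 calls were also lost when any 1 of the 6 ESC libraries was left out, with edgeR's Benjamini-Hochberg adjusted p from 0.0721 to 0.134 for Hdac5, 0.0752 to 0.135 for Hdac7 and 0.0721 to 0.142 for Hdac11, while the log2 fold changes stayed between -0.31 and -0.30, between -0.27 and -0.25, and between -0.72 and -0.53. In a fit of all 12 libraries none passed, at log2 fold changes of -0.32, -0.27 and -0.64. DESeq2 called Hdac5 (Benjamini-Hochberg adjusted p = 0.00387), did not call Hdac7 and gave Hdac11 no adjusted p. Over the alternatives that gave one, the adjusted p ranged from 0.00387 to 0.920 for Hdac5, from 0.0307 to 0.947 for Hdac7 and from 0.0416 to 0.920 for Hdac11, and the sign stayed negative in each. Beside these genes, the sum of 4 general pluripotency markers was 1109, 1172 and 1130 CPM in vehicle ESCs and 1092, 1037 and 1084 CPM in exposed ESCs. Sox2, the most abundant of them, was not lower, with a mean of 378 CPM with the vehicle and 381 CPM with Δ9-THC. The 2 of 5 neural ectoderm markers counted in ESCs, mainly Nes, summed to 41.5, 47.1 and 45.1 CPM with the vehicle and 40.8, 35.7 and 37.7 CPM with Δ9-THC. The part of these shifts in the result was not tested.

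**Figure D2:**
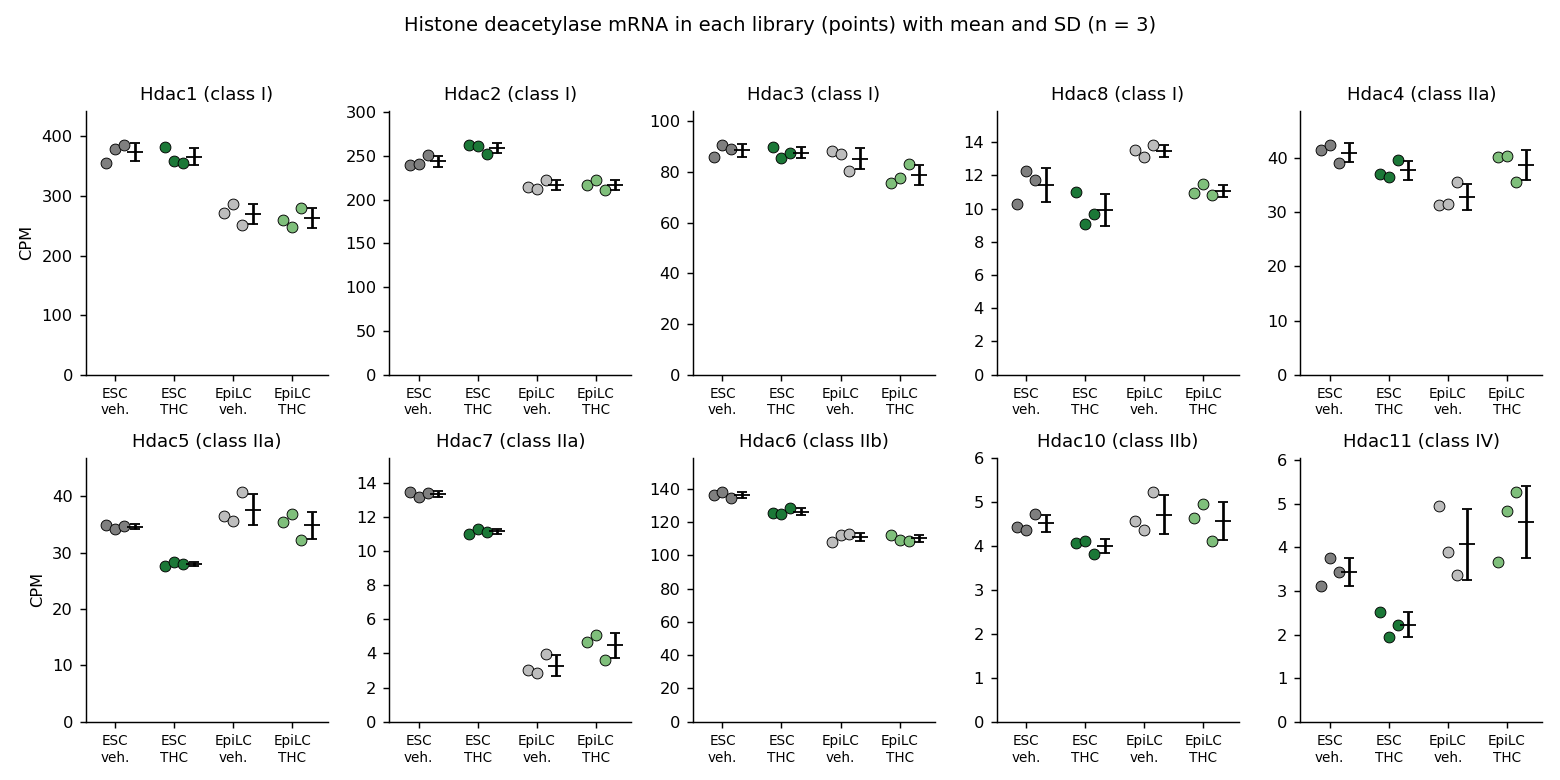
CPM of each of the 10 genes in each of the 12 libraries (points, replicates 1 to 3 from left to right), with the mean and SD of each group of 3 as a bar beside the points and a separate axis from 0 for each gene. In ESCs, the exposed libraries of Hdac5, Hdac6, Hdac7, Hdac10 and Hdac11 lie below the vehicle libraries and those of Hdac2 above them. In EpiLCs, only the exposed libraries of Hdac8 are separate from the vehicle group.

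In EpiLCs, 0 of 10 members were called with Δ9-THC, as were 0% of the 13717 genes tested by edgeR. At an unadjusted p under 0.05 there were 2069 genes, or 15.1%, and 3 members, Hdac4, Hdac7 and Hdac8. DESeq2 called 61 genes higher and 26 lower, and 0 members. The median log2 fold change of the members was -0.025, against 0.0030 over all genes. The general pluripotency markers summed to 928, 956 and 994 CPM with the vehicle and to 912, 891 and 853 CPM with Δ9-THC. The 2 primitive endoderm markers, mainly Dab2, summed to 8.48, 7.54 and 7.39 CPM with the vehicle and to 8.57, 9.88 and 9.85 CPM with Δ9-THC, and the part of either shift in the values below was not tested.

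The cohesin deacetylase gene Hdac8 was the 1 member whose exposed EpiLC libraries all lay below the vehicle libraries, as in 10.6% of all genes. It had 13.5, 13.1 and 13.8 CPM with the vehicle and 10.9, 11.5 and 10.8 CPM with Δ9-THC. The log2 fold change was -0.28 (SE 0.069, adjusted p = 0.179 by edgeR and Benjamini-Hochberg), a value of the same sign as in ESCs. The other X-linked member, Hdac6, had 108, 112 and 113 CPM with the vehicle and 112, 110 and 109 CPM with Δ9-THC, and its groups overlapped.

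None of the class IIa genes passed the test in EpiLCs. Hdac7 had 3.06, 2.83 and 3.98 CPM with the vehicle and 4.68, 5.08 and 3.64 CPM with Δ9-THC, from 89 to 129 counts over all 6 libraries. The third exposed library lay below the third vehicle library, and the log2 fold change was 0.45 (SE 0.18, adjusted p = 0.323 by edgeR and Benjamini-Hochberg). Hdac4 had 31.3, 31.5 and 35.6 CPM with the vehicle and 40.2, 40.5 and 35.6 CPM with Δ9-THC. Its groups touched at 35.6 CPM, and the log2 fold change was 0.24 (SE 0.084, adjusted p = 0.267 by edgeR and Benjamini-Hochberg). With the GC and length offsets, the value for Hdac4 was 0.147. Hdac5 had 36.6, 35.6 and 40.7 CPM with the vehicle and 35.5, 36.9 and 32.2 CPM with Δ9-THC. These groups overlapped, with a log2 fold change of -0.11 (SE 0.082, adjusted p = 0.571 by edgeR and Benjamini-Hochberg) and a range of -0.17 to -0.05 with 1 library left out.

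Hdac11 spread widely within each EpiLC group. It had 4.95, 3.90 and 3.36 CPM with the vehicle and 3.66, 4.84 and 5.26 CPM with Δ9-THC. The groups overlapped, with a log2 fold change of 0.17 (SE 0.19, adjusted p = 0.719 by edgeR and Benjamini-Hochberg) and a range of 0.05 to 0.33 with 1 library left out. Hdac10 had 4.57, 4.37 and 5.22 CPM against 4.64, 4.96 and 4.12 CPM, with overlapping groups. Among class I genes, Hdac1 had 272, 286 and 252 CPM with the vehicle and 260, 248 and 280 CPM with Δ9-THC. Hdac2 had 215, 213 and 223 CPM against 217, 222 and 211 CPM. Both overlapped between the groups. Hdac3 had 88.3, 87.3 and 80.4 CPM with the vehicle and 75.6, 77.5 and 83.1 CPM with Δ9-THC. Its groups overlapped, with a log2 fold change of -0.12 (SE 0.067, adjusted p = 0.461 by edgeR and Benjamini-Hochberg).

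**Figure D3:**
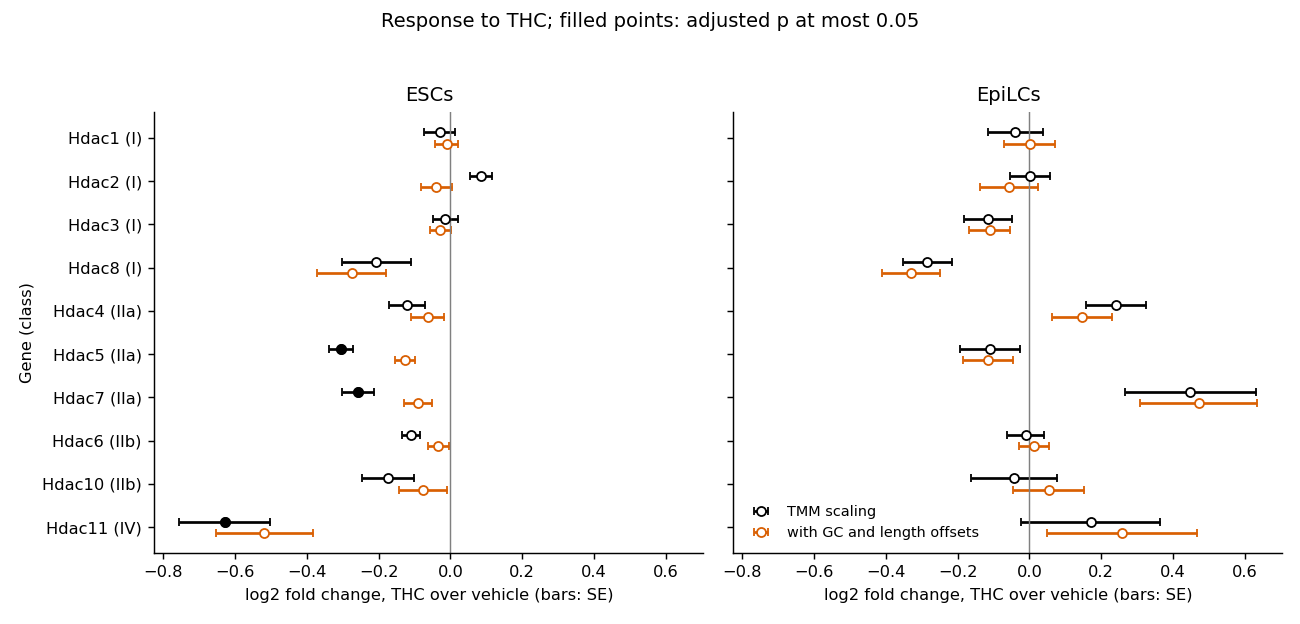
Log2 fold change of each gene with Δ9-THC over the vehicle in ESCs (left) and EpiLCs (right), with its SE as a bar, from edgeR with TMM scaling (black) and with the GC and length offsets (orange). Filled points have an adjusted p of at most 0.05, which holds for Hdac5, Hdac7 and Hdac11 in ESCs without the offsets.

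The difference of a response between cell types was tested by an interaction term over the 12 libraries and the 12410 genes in both tables. For 0 of 10 members did the difference pass, and 4 genes, or 0.0322%, were called by edgeR, with 1703 at an unadjusted p under 0.05. Without the GC and length offsets, the largest differences (EpiLCs minus ESCs) were those of the 3 members called in ESCs together with Hdac4. Hdac11 differed by 0.81 on the log2 scale (SE 0.25, adjusted p = 0.181 by edgeR and Benjamini-Hochberg). For Hdac7 the difference was 0.72 (SE 0.18, adjusted p = 0.125 by edgeR and Benjamini-Hochberg), and DESeq2 called it at an adjusted p of 0.0439, with a range of 0.0439 to 0.999 over 19 alternatives. Hdac4 differed by 0.38 (SE 0.10, adjusted p = 0.138 by edgeR and Benjamini-Hochberg) and Hdac5 by 0.21 (SE 0.094, adjusted p = 0.350 by edgeR and Benjamini-Hochberg). With the offsets the difference was 0.79 for Hdac11, 0.58 for Hdac7, 0.22 for Hdac4 and 0.03 for Hdac5, the last below the 0.15 of Hdac10, and none passed. So the lower levels in exposed ESCs were not shown to be particular to ESCs.

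The promoters of the class IIa genes Hdac5 and Hdac7 are shown because edgeR called both genes lower in exposed ESCs. Neither was called with the GC and length offsets. The promoter of Hdac11, also called lower without the offsets, lies within annotated exons and is not shown. RefSeq's promoter table for GRCm38 held 7 of 10 members, with 4 starts for Hdac7, of which the outermost is printed. The windows are the 150 bases before the start of transcription, at chr11:102230173-102230322 for Hdac5 and chr15:97844503-97844652 for Hdac7, both on the minus strand and outside annotated exons. Capitals mark the GC box GGGCGG on either strand.
Hdac5: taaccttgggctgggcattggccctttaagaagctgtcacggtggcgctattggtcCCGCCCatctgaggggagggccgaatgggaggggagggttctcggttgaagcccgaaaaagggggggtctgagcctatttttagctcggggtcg
Hdac7: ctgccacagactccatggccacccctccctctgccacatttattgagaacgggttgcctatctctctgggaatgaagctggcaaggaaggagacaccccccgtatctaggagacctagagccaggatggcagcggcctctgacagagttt
The Hdac5 window had 60.0% GC, 1 GC box, 2 matches of the CCAAT box (CCAAT, either strand) and 0 of the TATA box (TATAAA, either strand). The Hdac7 window had 56.7% GC and 0 matches of the 3 motifs. Over 32851 RefSeq promoter windows of the same length, 28.6% held a GC box, 24.5% a CCAAT box and 7.57% a TATA box, with a median GC content of 54%.

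The partner genes of these enzymes were read from lists of corepressor subunits, class IIa partners, cohesin subunits and sirtuins, 69 measured genes in all. In ESCs, 3 of the 69 were called higher and 3 lower with Δ9-THC, against 3.37% of all genes called higher and 3.55% called lower. At an unadjusted p under 0.05 there were 23 of the 69, against 28.7% of all genes in ESCs. DESeq2 called 3 higher and 2 lower in ESCs, and Arid4b and Mta1, called by edgeR, were not among them, while 1 gene that edgeR did not call was. In EpiLCs 0 of the 69 were called by edgeR, with 9 at an unadjusted p under 0.05, and 0 by DESeq2. With the GC and length offsets, in the fit of all 12 libraries, or without any 1 of the ESC libraries, 0 of the 69 were called in ESCs.

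Of 12 Sin3 complex genes, 2 rose in ESCs and 0 fell, with a median log2 fold change of 0.0068. Brms1l, a Sin3-associated subunit, went from 30.4 ± 0.953 to 35.5 ± 1.09 CPM (SD, n = 3), a log2 fold change of 0.22 (SE 0.041, adjusted p = 0.0370 by edgeR and Benjamini-Hochberg). Arid4b, another subunit, went from 55.7 ± 0.994 to 62.0 ± 1.35 CPM, a log2 fold change of 0.15 (SE 0.032, adjusted p = 0.0443 by edgeR and Benjamini-Hochberg). Of 11 NuRD genes, 2 fell, the chromatin remodeller Chd3 by 0.19 on the log2 scale (SE 0.040, adjusted p = 0.0427 by edgeR and Benjamini-Hochberg) and the scaffold gene Mta1 by 0.11 (SE 0.024, adjusted p = 0.0480 by edgeR and Benjamini-Hochberg), and the list's median was -0.0092. Of 7 CoREST genes, Hmg20b fell from 43.2 ± 1.86 to 37.1 ± 1.52 CPM, a log2 fold change of -0.22 (SE 0.048, adjusted p = 0.0481 by edgeR and Benjamini-Hochberg), and the median was -0.066.

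The 3 measured MiDAC genes had a median of -0.040 in ESCs and 0.071 in EpiLCs, with 0 calls by edgeR and 0 genes at an unadjusted p under 0.05 in both. Of 19 class IIa partners, the 14-3-3 gene Ywhaz rose from 681 ± 16.3 to 765 ± 15.7 CPM (SD, n = 3), a log2 fold change of 0.17 (SE 0.031, adjusted p = 0.0363 by edgeR and Benjamini-Hochberg), and 0 fell. The transcription factor gene Mef2b was at -0.23 in ESCs (adjusted p = 0.0669 by edgeR and Benjamini-Hochberg) and at -0.24 in EpiLCs (adjusted p = 0.261 by edgeR and Benjamini-Hochberg). The 5 cohesin genes, whose products include the substrate of HDAC8, had medians of 0.083 in ESCs and 0.15 in EpiLCs, with 0 calls by edgeR and with 3 genes in ESCs and 0 in EpiLCs at an unadjusted p under 0.05. The 7 sirtuin genes, NAD-dependent deacetylases outside the zinc-dependent family, had medians of -0.019 in ESCs and -0.15 in EpiLCs, with 0 calls by edgeR and 2 genes in ESCs at an unadjusted p under 0.05. DESeq2 called none of the MiDAC, cohesin and sirtuin genes.

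In EpiLCs, the smallest adjusted p among the partners was that of the NuRD gene Mbd3, at 172 ± 4.05 CPM in vehicle and 143 ± 2.67 CPM in exposed libraries (SD, n = 3). Its log2 fold change was -0.26 (SE 0.053, adjusted p = 0.155 by edgeR and Benjamini-Hochberg). The CoREST gene Rcor3 had a log2 fold change of 0.49 (SE 0.10, adjusted p = 0.161 by edgeR and Benjamini-Hochberg), at 3.99 ± 0.277 CPM in vehicle and 5.60 ± 0.351 CPM in exposed libraries. Neither passed, although both did in the fit of all 12 libraries.

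The genes whose pattern was most like that of a member were found by the root mean square difference of log2 CPM over the 12 libraries, after each gene was centred on its own mean, among 12409 other genes. For Hdac7 these were Kirrel at 0.099, C1rl at 0.11 and Prr13 at 0.12. Each of them was lower in EpiLCs, as Kirrel with a mean of 63.3 CPM in vehicle ESCs, 58.0 in exposed ESCs, 16.4 in vehicle EpiLCs and 20.2 in exposed EpiLCs. The genes nearest to Hdac5 were Map2k2 at 0.060, Irf2bp1 at 0.065 and Gtpbp3 at 0.067. Irf2bp1 had means of 27.6 CPM in vehicle ESCs, 22.2 in exposed ESCs, 30.4 in vehicle EpiLCs and 26.8 in exposed EpiLCs. Hdac11 was nearest to Nudt18 at 0.14, Nudt7 at 0.15 and Chst7 at 0.15, all of them at a few CPM. The likeness is a description over libraries that share their groups.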

How the data were processed

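Reads were mapped by the authors with STAR, and only unique hits were assigned to genes by HTSeq (union mode, no strand). The deposited tables, 1 for each cell type, contain whole-number counts that the authors had adjusted with ComBat-seq after dropping genes with few counts, and that are not scaled to library size. The batches are not named in the sources used here. PGCLCs were not analysed here. Both mm10 and GRCm39 are named as the genome, so positions, exonic lengths, GC content and names were looked up by gene identifier in GENCODE M21 (GRCm38) and did not alter the counts.

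Exposed and vehicle libraries were compared with the quasi-likelihood test of edgeR 4.0.16, after TMM normalization (R 4.3.3). Genes needed a total above 10 counts, and p-values were adjusted by Benjamini and Hochberg over every gene of the table. Each SE was derived from the log2 fold change and its F statistic. For Hdac10 in ESCs, and with the offsets for Hdac7 there, this SE is smaller than the p-value implies. P-values rest on the spread that batch adjustment left between libraries. The interaction used all 12 libraries. Alternatives were DESeq2 1.42.0, RLE in place of TMM, all genes unfiltered, only genes with 10 or more counts in each library, the replicate number as a block, GC and length offsets (natural splines, 5 degrees of freedom), block and offsets together, 1 fit of all 12 libraries, and each library left out in turn. Levels were also scaled to the total count and by RLE, and class shares were also taken from counts not divided by length. The alternatives for the partner lists were chosen after seeing the data. The fits were tested on simulated data with libraries drawn independently, so that test does not cover the dependence between the adjusted libraries. Python 3.11.15, pandas 2.3.3 and matplotlib 3.10.9 made the tables and figures.

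The members, the lists of partners and markers and the tests were chosen with earlier results of these data known. All members are named, with at most 3 genes of smallest adjusted p from each partner list and cell type, marker lists as sums, and the 3 genes most like Hdac5, Hdac7 and Hdac11. The list of HDAC3's partners is counted in the totals and otherwise not reported here.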

Additional observations from a re-analysis of the deposited data

How the results depend on the processing

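The 3 calls in ESCs (Hdac5, Hdac7 and Hdac11) were also made with RLE normalization. The filter removed no gene, so the fit without it was the same fit, and at least 10 counts in every library left 13094 of 13104 genes and the same 3 calls. DESeq2 called 1 member, Hdac5, and gave Hdac11 no adjusted p. The number was 0 with the GC and length offsets and in the fit of all 12 libraries (9 genes higher and 22 lower in all), and 0 to 0 when each library was left out in turn (0 or 1 gene in all). In EpiLCs no alternative called a member, while DESeq2 called 61 genes higher and 26 lower and the fit of all 12 libraries 252 higher and 159 lower. For the difference between the cell types DESeq2 called 1 member, Hdac7, among 93 genes higher and 40 lower, and the offsets gave 16 higher and 4 lower and 0 members. The cause of these changes was not tested.

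The replicate number as a block gave 0 members in ESCs, with 5 genes higher and 0 lower in all against 441 and 465 without it, and 0 members with the offsets too (3 genes in all). The log2 fold changes with the block alone were -0.30 for Hdac5, -0.26 for Hdac7 and -0.63 for Hdac11, with an SE of 0.086, 0.117 and 0.225. It gave 0 members in EpiLCs and 0 for the difference. Of the 69 partner genes the block gave 0 in ESCs. Same-numbered vehicle and exposed libraries deviated from their group means in opposite directions across genes, with correlations of -0.99, -0.98 and -0.98 in ESCs and -0.98, -0.98 and -0.99 in EpiLCs, and no library correlated best with its own number. The libraries of both arms are thus not independent of each other, so p-values from the fit without the block may be too small, and no label ties a number to a shared batch.

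The values that changed sign were small. With the offsets, and with block and offsets, the log2 fold change was -0.03883 and -0.03878 for Hdac2 in ESCs, and in EpiLCs 0.0005704 and 0.0006592 for Hdac1, -0.05655 and -0.05615 for Hdac2, 0.01222 and 0.01221 for Hdac6, and 0.05302 and 0.05192 for Hdac10. The difference between cell types was then 0.005154 and 0.004986 for Hdac2. Hdac2 in EpiLCs was also at -0.002159 with RLE and -0.002108 with DESeq2. With 1 library left out, the range was -0.03344 to 0.003846 for Hdac3 in ESCs, and in EpiLCs -0.09131 to 0.00454 for Hdac1, -0.03021 to 0.02308 for Hdac2, -0.03891 to 0.003248 for Hdac6 and -0.1182 to 0.0334 for Hdac10. The differences ranged from -0.04464 to 0.04832 for Hdac1 and from -0.1213 to 0.01757 for Hdac8.

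As shares of counts not divided by length, class I held 75.45% in vehicle ESCs and 75.15% in vehicle EpiLCs, class IIa 9.37% and 9.473%, class IIb 14.82% and 14.85%, and class IV 0.3605% in vehicle ESCs.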
